A study of Homo sapiens with 3 samples.

Results

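The Rab27, Rab26 and synaptotagmin-like exocytosis genes are 9 genes of regulated secretion: the small GTPase genes RAB26, RAB27A, RAB27B and RAB3D, the synaptotagmin-like genes SYTL1, SYTL2, SYTL4 and SYTL5, and EXPH5. They were read in KYSE150 cells, an established line from a human oesophageal squamous carcinoma, on Affymetrix 3' expression arrays. The control culture received the vector, and the other cultures received pcDNA3.1 plasmids for LOXL2 WT or for LOXL2 delta72. The labels do not say what the delta72 form lacks or contains. LOXL2 is lysyl oxidase like 2, an amine oxidase of collagen and elastin. RNA was taken 48 h after transfection, and each of the 3 conditions had 1 array. The share of cells that took up a plasmid is not given in the sources used here, and each array reads a whole culture, so a smaller share of expressing cells and less RNA per cell cannot be told apart.

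The genes were chosen by name after SYTL2 and RAB26 had been seen among the most different genes on these arrays, so their differences are a description without a test. All probe sets paired with exactly 1 of the 9 symbols were taken, which gave 19 probe sets for 9 of the 18132 genes on the array. A single array stood for each condition, so no spread between replicates exists, and "higher" or "lower" describes these arrays alone. The only error available is the spread between probe sets of a gene. Pooled over the 7163 genes with more than 1 probe set above the filter described next, its SD on the log2 scale was 0.17 when WT was set against control, 0.15 when delta72 was set against control, and 0.11 between both forms. Probe sets of a gene share the same arrays, so this error leaves out whatever differs between whole cultures or whole arrays.

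Secretory vesicles carry Rab proteins, small GTPases that bind effectors when loaded with GTP. Rab27 proteins direct the docking of lysosome-related organelles, secretory granules and exosome-bearing multivesicular bodies at the plasma membrane. Synaptotagmin-like proteins bind Rab27 through an amino-terminal domain and bind membrane lipids through C2 domains, which ties the vesicle to its target membrane. EXPH5, also called Slac2-b, is a Rab27 effector without C2 domains, and loss of EXPH5 causes skin fragility. Rab3D and Rab26 sit on secretory granules of exocrine cells, and Rab26 has also been linked to the delivery of synaptic vesicles to autophagy.

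In these cells SYTL2 lay above and RAB26 below the control array with either form of LOXL2. SYTL2 was 1.82-fold above control with WT and 2.48-fold above it with delta72, while RAB26 was 2.06-fold and 1.92-fold below. RAB27A, SYTL1 and EXPH5 differed from control by less than 1.5-fold on every probe set. RAB27B, RAB3D, SYTL4 and SYTL5 lay below the filter on dim probe sets. Between both forms, SYTL2 was the member with the largest difference and was higher with delta72.

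For each gene the brightest probe set, by its mean over the 3 arrays, was used. A filter then removed genes whose mean lay under the 40th percentile of the non-control probe sets, a deposited level of 5.27 on the log2 scale. This left 12232 genes in all and 5 of the 9 members, with 13 of the 19 probe sets. The dimmest probe set kept belonged to SYTL2 and had a mean level of 6.08, and the brightest one left out was that of RAB3D, with a mean level of 4.91. The 23 background probe sets of the array read from 2.29 to 10.84 on the control array, depending on their base composition. The base composition of the members' probes is not used here, so it is not known how far each level lies above its own background. Background probe sets differed by up to 0.29 for WT against control, 0.17 for delta72 against control and 0.15 between both forms.

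**Figure D1:**
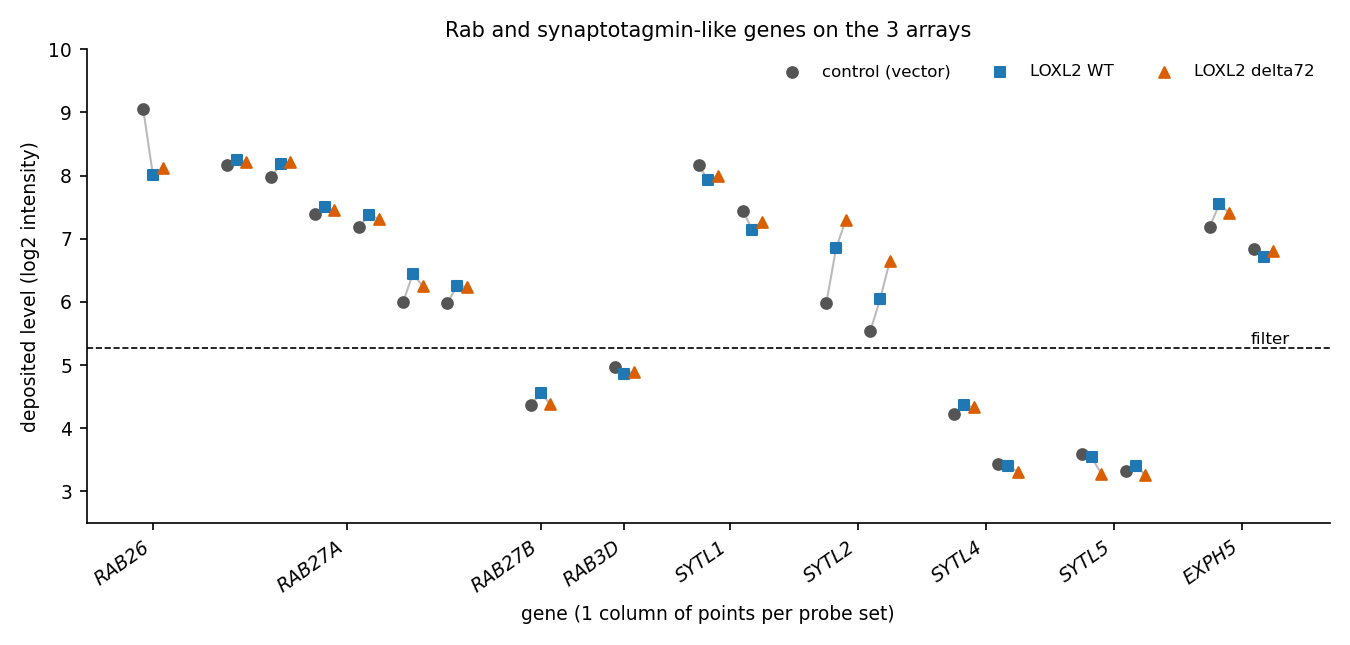
Deposited log2 intensity (y axis) of each of the 19 probe sets, grouped by gene (x axis), on the control array (circles), the LOXL2 WT array (squares) and the LOXL2 delta72 array (triangles); grey lines join the values of a probe set and the dashed line is the filter level of 5.27. Both SYTL2 probe sets step up from control to WT to delta72, RAB26 drops on both LOXL2 arrays, and RAB27B, RAB3D, SYTL4 and SYTL5 lie under the line.

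The labels were checked first. The brightest LOXL2 probe set read 7.46 in the control, 14.05 with WT and 14.06 with delta72. This sets the control array apart from both LOXL2 arrays. It cannot tell WT from delta72, so which form is on which array rests on the labels alone. Of the squamous markers listed, 5 could be read, and all 5 (KRT5, KRT14, DSG3, DSC3 and SFN) lay above the filter. TP63, KRT6A and KRT17 were not analysed here. The mean level of the 5 squamous genes was 9.58 on the control array, 9.36 with WT and 9.21 with delta72, and 4 of them were lower on both LOXL2 arrays. The part of this decline in the members' differences was not tested. Mean levels of the melanocyte, leukocyte, pancreatic acinar, fibroblast and endothelial markers lay between 4.31 and 5.13 on every array. Within the melanocyte list 2 of 4 genes passed the filter, as did 3 of 5 leukocyte genes, 2 of 5 acinar genes, 1 of 5 fibroblast genes and 3 of 5 endothelial genes. The neuroendocrine markers had mean levels of 5.99, 5.91 and 6.08, with SYP and ENO2 above the filter.

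SYTL2 encodes a synaptotagmin-like protein that binds Rab27 and is known for tethering granules and other Rab27 vesicles to the plasma membrane. Its brighter probe set read 5.98 in the control culture, 6.85 with WT and 7.29 with delta72. The control array was the lowest and the delta72 array the highest. The second probe set read 5.54, 6.04 and 6.65 in the same order. Both probe sets therefore placed the arrays in the same sequence, with WT between control and delta72. Some markers of other cell types read as high on the control array, such as PMEL at 6.25 and CD79A at 6.10, while others read lower. The control level of SYTL2 alone therefore does not show that the gene was expressed there.

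On the brighter probe set SYTL2 was 0.87 higher on the log2 scale with WT than on the control array and 1.31 higher with delta72. On the second probe set the differences were 0.50 (1.41-fold) and 1.10 (2.15-fold). The SD over the 2 probe sets was 0.26 for WT and 0.15 for delta72, so the difference with delta72 agreed more closely between probe sets than that with WT. Among the 12232 genes, with LOXL2 itself included, SYTL2 ranked 44 from the top with WT and 7 from the top with delta72. The background correction behind the deposited values is not known, and fold changes of dim probe sets depend on it.

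Between both forms, without use of the control array, SYTL2 was 0.44 higher with delta72 than with WT on the brighter probe set (1.36-fold) and 0.60 higher on the second (1.52-fold). The SD over these 2 probe sets was 0.11. On its brighter probe set SYTL2 ranked 62 from the top of the 12232 genes in this comparison.

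RAB26 encodes a Rab of secretory granules. It is represented by 1 probe set, which read 9.06 in the control culture, 8.01 with WT and 8.12 with delta72. Both LOXL2 arrays were low, and they lay closer to each other than to the control. The difference was -1.04 with WT and -0.94 with delta72. RAB26 ranked 11 from the bottom of the 12232 genes with WT and 4 from the bottom with delta72. It was 0.10 higher with delta72 than with WT, which is below the pooled probe error of 0.11. No second probe set was there to check it, and both differences use the same control array.

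The place of RAB26 among the other Rab genes was read after its value had been seen. Of 57 genes named RAB with a number and at most 1 letter, 44 lay above the filter. With WT, 20 of these were higher and 24 lower than on the control array, with a median of -0.02. RAB26 was the lowest, and the next was RAB20 at -0.44. The highest were RAB30 at 0.52 and RAB23 at 0.46. With delta72, 26 were higher and 18 lower, with a median of 0.02. RAB26 was again the lowest, followed by RAB5B at -0.32, and RAB30 was the highest at 0.44. RAB26 was the only one of the 44 at least 1.5-fold different from control on its brightest probe set with either form. Over all 12232 genes, 1.85% were that much higher and 0.867% that much lower with WT. With delta72 these shares were 1.28% and 0.499%. A count of 1 in 44 is not far from these shares, so it does not set the Rab genes apart from other genes.

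RAB27A encodes the Rab27 protein of melanosomes, lytic granules and exosome release, whose loss causes Griscelli syndrome. It had 6 probe sets, all above the filter. The brightest read 8.16 on the control array, 8.25 with WT and 8.21 with delta72, which is almost level. All 6 probe sets were higher with WT than on the control array, by 0.08 to 0.44 with a median of 0.20 (SD 0.13). All 6 were also higher with delta72, by 0.05 to 0.26 with a median of 0.19 (SD 0.10). The largest difference, 0.44 with WT, was on a dimmer probe set that read 6.004, 6.45 and 6.25.

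Of the 483 genes with at least 6 probe sets above the filter, 55 (11.4%) had all of them higher on both LOXL2 arrays and 66 (13.7%) all of them lower. Probe sets of a gene share the arrays and often the transcript, so the 6 readings are not 6 measurements of the condition. Of the 6 probe sets, 3 carry the suffix _x_at or _s_at, which Affymetrix gives to probe sets that can match other transcripts. Between both forms, 5 of the 6 probe sets were lower with delta72, with a median of -0.04 (SD 0.08).

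SYTL1, a synaptotagmin-like gene also known as JFC1, was lower on both LOXL2 arrays by less than 1.5-fold. Its brighter probe set read 8.16 on the control array, 7.93 with WT and 7.996 with delta72. Its second probe set, which carries the suffix _x_at and can match other transcripts, read 7.45, 7.15 and 7.27. The control array was the highest and the WT array the lowest on both. The differences from control were -0.23 and -0.30 with WT (SD 0.05) and -0.16 and -0.18 with delta72 (SD 0.01). Between both forms SYTL1 was 0.07 and 0.12 higher with delta72, on either side of the pooled probe error of 0.11.

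EXPH5 gave no single direction. Its brighter probe set read 7.19 on the control array, 7.55 with WT and 7.41 with delta72. Its second probe set read 6.83, 6.71 and 6.80. The first was 0.36 higher with WT and 0.21 higher with delta72, whereas the second differed by -0.12 and -0.03. The SD over both was 0.34 for WT and 0.17 for delta72, larger than their median differences, 0.12 and 0.09. Both probe sets of EXPH5 therefore disagreed in sign against control, and also between both forms, at -0.14 and 0.10.

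**Figure D2:**
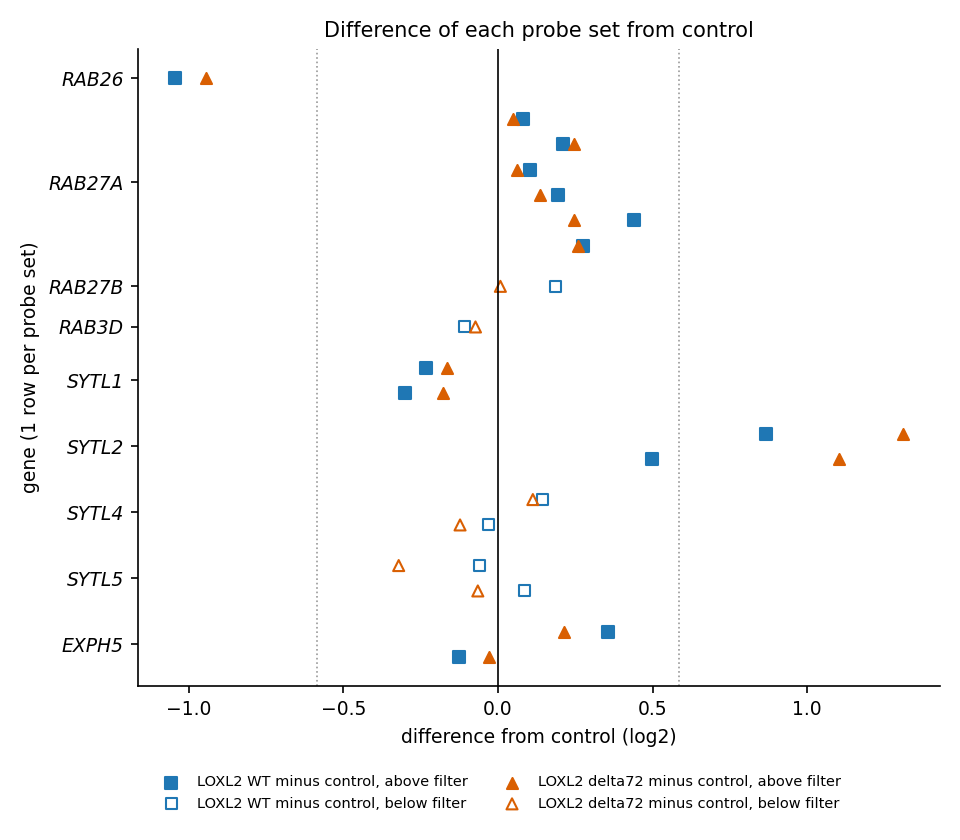
Log2 difference from the control array (x axis) of each probe set (rows, grouped by gene on the y axis) with LOXL2 WT (squares) and LOXL2 delta72 (triangles); filled symbols lie above the filter, open ones below it, and dotted lines mark 1.5-fold. RAB26 lies beyond the left dotted line with both forms, SYTL2 lies beyond the right one except for its second probe set with WT at 0.50, all 6 rows of RAB27A lie to the right of 0, and the 2 rows of EXPH5 lie on opposite sides.

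The remaining Rab genes lay below the filter. RAB27B, the second Rab27 gene, read 4.37 on the control array, 4.56 with WT and 4.38 with delta72 on its 1 probe set. RAB3D read 4.97, 4.86 and 4.90 on its 1 probe set. Neither differed from control by more than 0.19. They lay below the filter on all 3 arrays, and no direction is drawn from them.

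SYTL4, also called granuphilin and known from insulin granules, read 4.22 on the control array, 4.36 with WT and 4.33 with delta72 on its brighter probe set. Its second probe set read 3.44, 3.41 and 3.31, and so the sign against control differed between probe sets with both forms. SYTL5 read 3.60, 3.54 and 3.28 on its brighter probe set and 3.32, 3.41 and 3.26 on the second. The larger difference was -0.32 with delta72, against -0.06 on the second probe set. All 4 probe sets of SYTL4 and SYTL5 lay below the filter on every array.

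Counted over the 5 members above the filter, 3 were higher and 2 lower than control with either form on the brightest probe set, where 48.0% of all genes were higher with WT and 49.7% with delta72. EXPH5 is among the 3, although its second probe set was lower with both forms. With WT, 1 of 5 was at least 1.5-fold higher (SYTL2) and 1 at least 1.5-fold lower (RAB26), where 1.85% of the 12232 genes were that much higher and 0.867% that much lower. With delta72 the counts were again 1 and 1, against 1.28% and 0.499% of all genes. Since SYTL2 and RAB26 were the reason for choosing the group, nothing is read from these counts. Between both forms 0 of 5 members reached 1.5-fold on the brightest probe set, where 0.18% of all genes were that much higher with delta72 and 0.0409% that much lower. The median of the 5 members was 0.08 with WT, 0.05 with delta72 and 0.07 between both forms, beside medians over all genes of -0.01, 0.00 and 0.00.

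**Figure D3:**
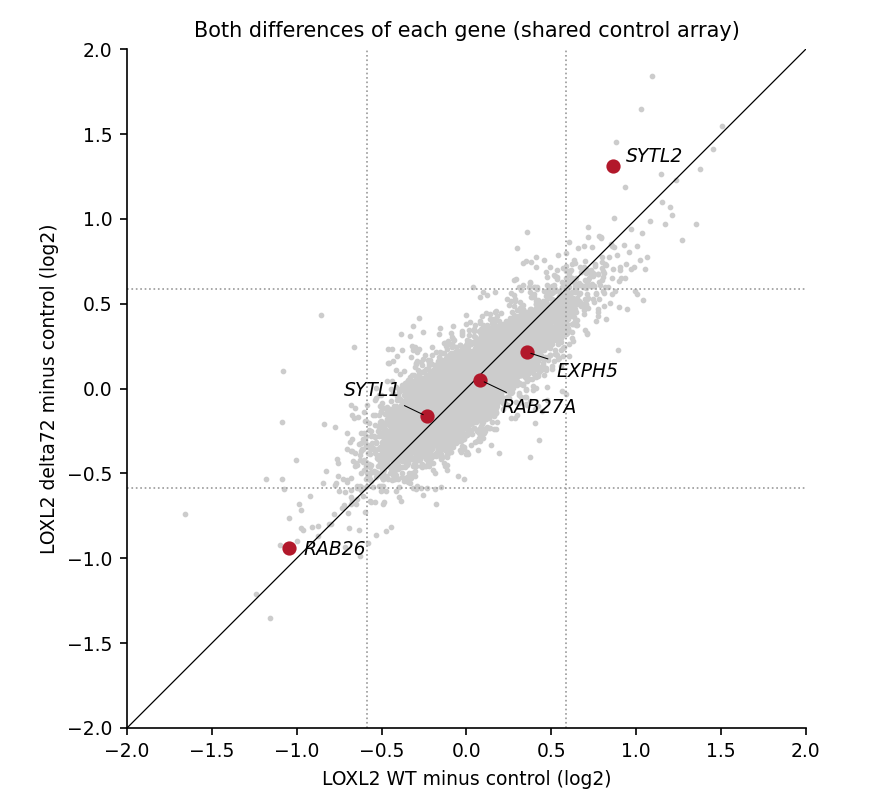
Log2 difference of each gene above the filter with LOXL2 WT (x axis) and with LOXL2 delta72 (y axis) against the same control array; grey points are the genes, red points the 5 members above the filter, dotted lines mark 1.5-fold and the diagonal marks equal differences. LOXL2 itself is the 1 gene outside the plotted range. SYTL2 lies above the diagonal at 0.87 and 1.31, RAB26 near it at -1.04 and -0.94, and RAB27A, SYTL1 and EXPH5 lie within the cloud.

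The genes nearest to SYTL2 and RAB26 were found by the Euclidean distance between the pairs of differences from control, over the 3 arrays. Nearest to SYTL2 were HSPA5, at 0.93 with WT and 1.19 with delta72 (distance 0.14), HERPUD1 at 0.88 and 1.45 (distance 0.14), and ODC1 at 1.15 and 1.27 (distance 0.29). Nearest to RAB26 were EXD3 at -1.10 and -0.92 (distance 0.06), KRT15 at -1.0 and -0.90 (distance 0.06) and LRG1 at -0.96 and -0.83 (distance 0.14). Patterns over 3 arrays that share a control are a weak measure of likeness.

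The machinery around Rab27 was read from 8 lists of other genes of secretion, 106 genes in all. Of these, 85 lay above the filter, and the rest lay below it or had no probe set paired with exactly 1 symbol. Among the 85, 1 was at least 1.5-fold higher with WT, 0 were at least 1.5-fold lower, and 0 reached 1.5-fold with delta72 in either direction. Their median difference was -0.02 with WT and 0.0006 with delta72, beside -0.01 and 0.00 over all genes. The shares among all genes given above, 1.85% and 1.28% higher and 0.867% and 0.499% lower, are the background of these counts. They are also the background of the counts for each list below. At such shares, a count of 0 in a short list says little.

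Rab27 effectors and motors outside the 9 genes were read in 9 of 11 cases, and 0 of 9 reached 1.5-fold in either direction with either form. SYTL3, the remaining synaptotagmin-like gene, read 7.57 on the control array, 7.30 with WT and 7.46 with delta72. It differed by -0.28 with WT (SD 0.03 over 2 probe sets) and differed by -0.11 with delta72. UNC13D, which encodes the granule-priming protein Munc13-4, differed by -0.27 and -0.16, with an SD of 0.27 over 4 probe sets for WT. Over the median of its probe sets UNC13D differed by -0.24 with WT and by -0.04 with delta72. MLPH, the melanophilin gene that links Rab27A to myosin Va, differed by -0.10 and -0.27, but by -0.01 with delta72 when the median over its probe sets was taken. Only 1 of its probe sets lay above the filter, so that median also uses dimmer ones.

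Regulators of Rab27 and Rab3, with prenylation and GDI genes, were read in 13 cases, and 0 of 13 reached 1.5-fold. TBC1D10A, which encodes a GTPase-activating protein of Rab27A, read 8.01 on the control array, 7.46 with WT and 7.52 with delta72. Its differences were -0.54 (SD 0.21 over 2 probe sets) and -0.49 (SD 0.06). RABIF, also called MSS4, a protein that binds nucleotide-free Rabs, read 5.87, 6.41 and 6.37. Its differences were 0.54 and 0.50, with SDs of 0.06 and 0.02 over 2 probe sets. CHML, a Rab escort protein that presents Rabs for prenylation, was 0.36 and 0.30 higher.

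Among other Rabs of secretion and recycling, 0 of 13 reached 1.5-fold. RAB25, an epithelial Rab of recycling endosomes, differed by -0.42 with WT and -0.23 with delta72. RAB11B, of the same pathway, differed by -0.31 and -0.25 (SD 0.20 and 0.15 over 6 probe sets). RAB3A, the synaptic vesicle Rab, differed by -0.20 and -0.30, and by -0.45 with WT over the median of its probe sets. With WT 10 of the 13 were lower and 3 higher, with a median of -0.05, and with delta72 6 were lower and 7 higher, with a median of 0.007. Over all genes 48.0% were higher with WT and 49.7% with delta72.

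The exocyst, a complex that tethers vesicles to the plasma membrane, held the 1 listed gene past 1.5-fold. EXOC8 read 7.37 on the control array, 8.01 with WT and 7.80 with delta72. Its differences were 0.63 (SD 0.28 over 2 probe sets) and 0.42 (SD 0.18). With the median over both probe sets the WT difference was 0.43, below 1.5-fold. The other 8 exocyst genes did not reach it, with EXOC6 at -0.03 and -0.24 and EXOC4 at -0.21 and -0.09.

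SNARE and fusion genes gave 0 of 17 past 1.5-fold. NAPA, which encodes alpha-SNAP, the adaptor for SNARE disassembly, differed by 0.41 with WT and -0.12 with delta72, and its delta72 minus WT difference of -0.53 (SD 0.25 over 3 probe sets) was the largest of the list. Over the median of its probe sets NAPA differed by -0.28 between both forms and by 0.015 for delta72 against control. SNAP29 was 0.39 and 0.24 higher on its brightest probe set, but 0.006 with WT when the median over all its probe sets was taken. STX4, a syntaxin of the plasma membrane, was 0.33 and 0.35 higher.

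Synaptotagmins and extended synaptotagmins were above the filter in 10 of 21 cases, and 0 of 10 were past 1.5-fold. SYT17 differed by -0.18 and -0.32, SYT12 by -0.27 and -0.12 (0.02 with delta72 over the median of its probe sets), and ESYT1, a protein of contacts between the endoplasmic reticulum and the plasma membrane, by 0.24 and 0.23. Only 1 probe set of SYT12 lay above the filter, so its median also uses dimmer ones. Multivesicular body and exosome genes gave 0 of 11 past 1.5-fold. The tetraspanin gene CD9 read 12.53 on the control array, 12.17 with WT and 12.20 with delta72, at -0.36 and -0.33 (SD 0.12 and 0.11 over 7 probe sets). CD81 differed by -0.30 and -0.21, and VPS4A, an ATPase of the multivesicular pathway, by 0.14 and 0.26.

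Of the list set up around RAB26, 3 of 4 genes lay above the filter and 0 of 3 reached 1.5-fold. PLEKHG5, which encodes an exchange factor that acts on Rab26, differed by -0.31 with WT and -0.26 with delta72 (SD 0.05 and 0.10 over 4 probe sets). XBP1, a transcription factor of secretory cells, was 0.23 and 0.28 higher. ATG16L1, an autophagy protein that binds Rab26, differed by 0.03 and -0.004, and by -0.01 and 0.14 over the median of its probe sets.

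**Figure D4:**
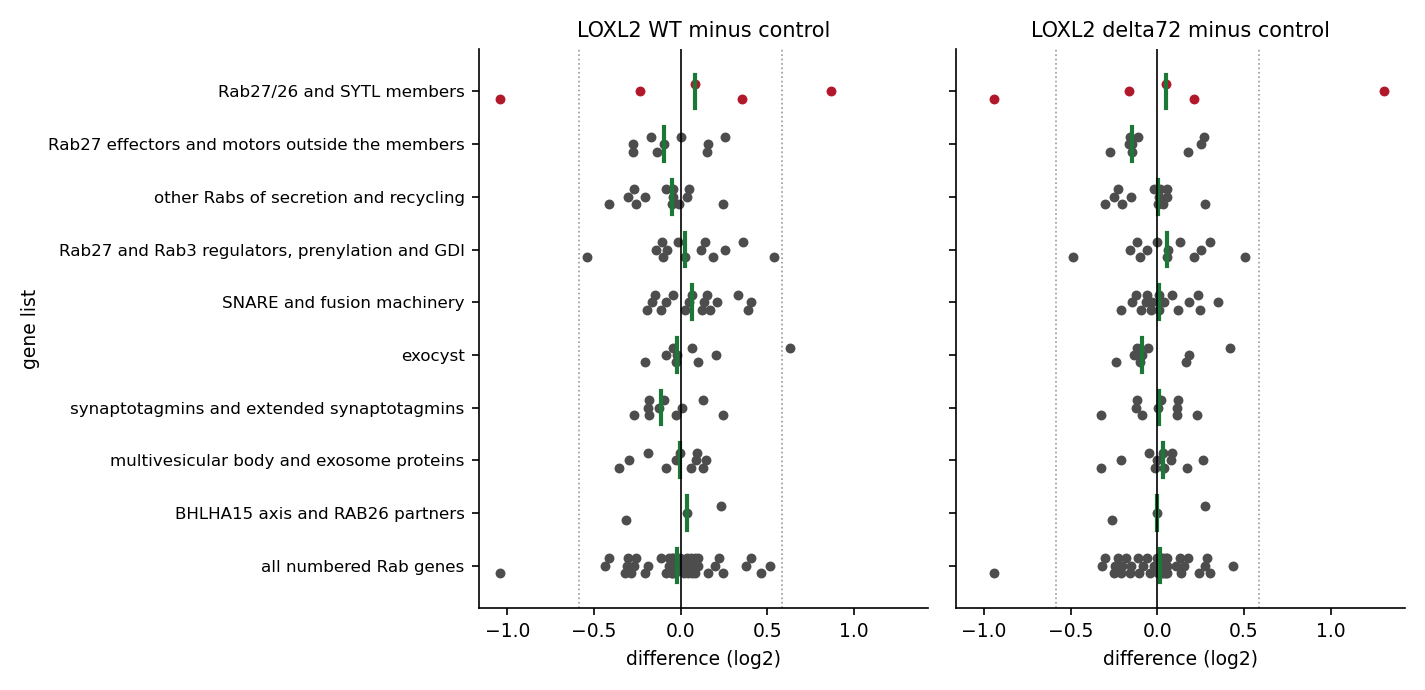
Log2 difference from control (x axis) of each gene above the filter in the 5 members (red), the 8 lists of secretion genes and the numbered Rab genes (grey), 1 row per list on the y axis, with LOXL2 WT on the left and LOXL2 delta72 on the right; green bars are medians and dotted lines mark 1.5-fold. SYTL2 and RAB26 lie outside the dotted lines on both sides, and EXOC8 is the 1 further point outside them, with LOXL2 WT.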

How the data were processed

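The authors deposited 1 table of log2 intensities, with 49395 probe sets on 3 arrays. The unit was read from the values, which lay between 2.07 and 14.56. Per the labels' protocols, biotinylated cRNA was prepared with 100 ng of RNA as input. Per the submitters' processing notes, Partek and Affymetrix Expression Console were used, whose versions, like the normalization, the sources used here do not give. Array medians were 5.95, 5.93 and 5.94, which hides any shift common to most genes.

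Probe sets paired with 1 symbol were 44988, those with several 1832 and unlisted ones 2473, beside 102 Affymetrix controls. Differences of log2 values were computed with Python 3.11.15 and pandas 2.3.3. The counting was tested on simulated data with planted differences well past 1.5-fold, which checks the code and not the counts of these arrays. No test across arrays was possible with 1 array per condition, and their number limits the precision. Genes of each list were named by size, up to 3 per list with the largest difference from control. The members and lists were chosen with earlier results of these data known. The alternatives were a common median, quantile normalization, lowess, the median over probe sets, no filter and the 60th percentile filter. The median over probe sets included those below the filter.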

Additional observations from a re-analysis of the deposited data

How the results depend on the processing

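The counts of members at least 1.5-fold different stayed at 2, 2 and 0 for WT against control, delta72 against control and both forms under the 6 alternatives. Over these, and over the member medians, 36 of 36 values kept their count or moved by less than the probe error. In the same order, the probe errors were 0.17, 0.15 and 0.11, and the medians 0.08, 0.05 and 0.07. A median could change sign within such a limit, so for the medians this tally says little. The higher filter kept the same 5 members, so its counts and medians could not move. The 5 members above the filter kept the sign of their differences under the 3 scaling alternatives and the median over probe sets, which cannot move RAB26 with its 1 probe set. The filters leave single-gene values as they are. The probe sets of EXPH5 disagree in sign, so its sign is not a settled direction. SYTL2 ranged from 0.68 to 0.92 with WT and from 1.21 to 1.33 with delta72, and RAB26 from -1.09 to -1.04 and from -0.97 to -0.94. With no filter, the median of the 9 members was -0.03 between both forms, against 0.07 over 5, a change of sign that lay within the probe error. Using a gene's median probe set value moved 17 single-gene values by more than the probe error, among them SYTL2 with WT, at 0.68, and EXPH5 with WT, at 0.12, and between both forms, at -0.02. For MLPH it gave -0.01 with delta72, for RAB3A -0.45 with WT. Of the 17 values, 5 changed sign, among them RAB3A between both forms, from -0.10 to 0.24. LOXL2 itself fell from 6.59 to 3.93 with WT and from 6.60 to 3.90 with delta72. No replicate could be left out with 1 array per condition. No paired analysis was possible because each condition has 1 array. Signal over background is not known for any member, and RAB27B, RAB3D, SYTL4 and SYTL5 lay below the filter.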
